A study of Mus musculus with 12 samples.

Results

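The genes described here encode the machinery of pyroptosis and necroptosis, and they were followed in the livers of mice with concanavalin A (Con A) hepatitis. They were taken by gene name from a list of 10, namely Casp1, Casp4, Gsdmd, Nlrp3, Pycard, Aim2, Ripk1, Ripk3, Mlkl and Zbp1, and 7 of the 10 had a row in the deposited table of 11289 genes. Nlrp3, Aim2 and Ripk3 had no row under their symbol or Ensembl gene identifier and were not analysed here. The rule that chose them used gene names and no measured values of these genes, although results of these data were known when the list was drawn up.

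Liver RNA of 12 C57BL/6J mice, labelled as 8 to 10 weeks old, was sequenced, with 4 mice in each of 3 groups. Con A + PBS mice received Con A, a T cell-activating lectin from jack beans, at 15 mg/kg into the tail vein and PBS 30 min later. Con A + hWJ-MSCs mice received the same dose of Con A and, 30 min later, mesenchymal stromal cells of human umbilical cord Wharton's jelly (hWJ-MSCs). By the labels, 2000000 cells were given in 200 µL and livers were taken 24 h later. The paper states another number of cells and another age range. Control mice are described only as such, and no group received cells without Con A. The mice were male by the paper's methods, and no transgene or deletion is named. The cells were human and were given soon after Con A.

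In pyroptosis a sensor such as NLRP3 or AIM2 gathers the adaptor ASC, encoded by Pycard, and caspase-1 is activated on it. Caspase-1, or caspase-11 (the product of mouse Casp4) after it has bound bacterial lipopolysaccharide, cuts gasdermin D, whose freed end forms pores in the plasma membrane. In necroptosis the kinases RIPK1 and RIPK3, or the nucleic acid sensor ZBP1 with RIPK3, lead to phosphorylation of MLKL, which then ruptures the membrane. Several of these genes are known to be induced by interferons, and both forms of death have been studied in inflamed liver. The RNA levels below report neither cleavage nor phosphorylation of any of these proteins.

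The measurements were whole-number expression values that the authors had already scaled between mice, with the same median of 352 in every mouse and totals from 17649700 to 17657200. They are called deposited values here, have no unit of their own, and do not show how deeply each mouse was sequenced. All 10 hepatocyte markers were in the table with none at 0 in any mouse, and Alb was at the largest value, 341028, in all 12. The presence of a marker does not show liver identity, since all 8 pan-leukocyte markers were also in the table with none at 0. Fold changes were taken on the log2(value + 1) scale, which understates the change of genes with low values, and a gene was called when its adjusted p was below 0.05 and its fold change above 1.5. The 3 comparisons share groups, so a member's changes in them are not independent of each other.

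After Con A, 5 of the 7 measured members rose, the other two did not pass the test, and none fell. Zbp1 rose the most, followed by Mlkl, and Pycard, Casp4 and Gsdmd rose by less. Casp1 and Ripk1 overlapped with the control group. Of all genes tested, 19.5% were called higher and 19.2% lower in the same comparison. Pycard reached the lowest level at which genes were kept in the table, 64 in at least 2 mice, only in mice given Con A (0 of 4 control mice, 1 of 4 given PBS and 3 of 4 given cells), so the count of 5 cannot be set against the share of all genes as support.

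With hWJ-MSCs, Zbp1 and Mlkl were lower than in Con A + PBS mice and the remaining 5 members did not pass the test. Of all genes, 4.2% were called higher and 4.38% lower in this comparison. Both genes stayed above the control group. Relative to control, the members that rose with Con A + PBS (Pycard, Casp4, Gsdmd, Zbp1 and Mlkl) were also higher in Con A + hWJ-MSCs mice, where 13.6% of all genes were called higher and 13.1% lower. The same limit holds for Pycard here, and no support is drawn from the count or from the medians that follow. The median log2 fold change of the 7 members was 1.10 after Con A, -0.08 with the cells against Con A + PBS and 0.99 with the cells against control, beside 0.05, 0.00 and 0.04 over all genes.

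**Figure D1:**
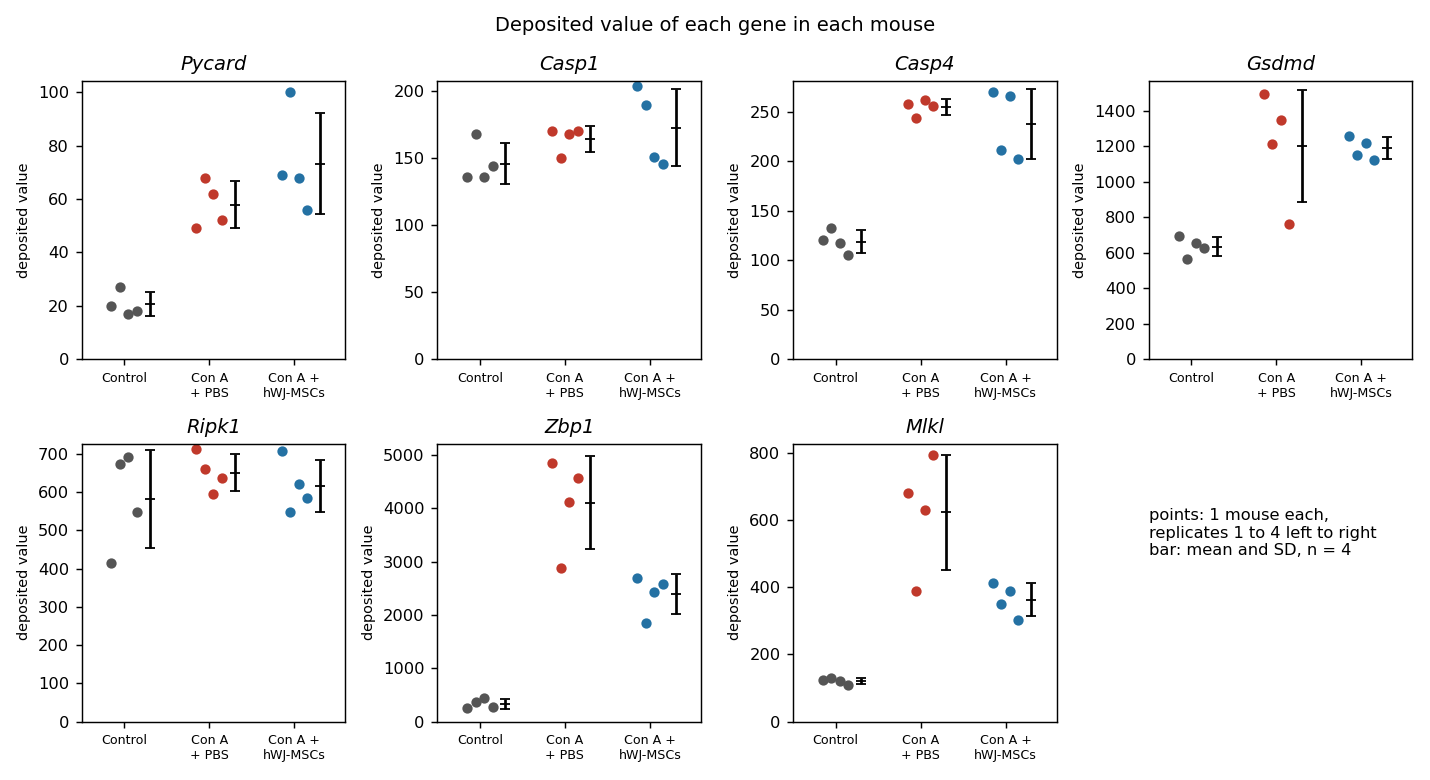
Deposited expression value (no unit, linear axis from 0) of the 7 measured genes in each mouse, with 1 point per mouse and the mean and SD of the 4 mice of a group as a bar. Zbp1 lay between 257 and 452 in control mice, between 2870 and 4840 after Con A + PBS and between 1858 and 2700 after Con A + hWJ-MSCs, while the Casp1 and Ripk1 points of the 3 groups overlap.

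The adaptor of the inflammasome, Pycard (chr7:127992103-127993867, minus strand, mm10), was listed at low values. They were 20, 27, 17 and 18 in control mice, 49, 68, 62 and 52 in Con A + PBS mice, and 69, 100, 68 and 56 in Con A + hWJ-MSCs mice. Every mouse given Con A lay above every control mouse, and the mice with and without cells overlapped. Its level was 2.75-fold above control after Con A (log2 fold change 1.46, SE 0.24) and 3.43-fold above control with cells (log2 fold change 1.78, SE 0.24). These are descriptions with no test, since Pycard was kept in the table only through the mice given Con A. Between the Con A groups the difference was 0.32 on the log2 scale, with a 95% interval of -0.20 to 0.83 (adjusted p = 0.359), so a rise up to 1.78-fold or a fall to 0.873-fold lies within it. In the GENCODE M21 annotation the exons of Pycard overlap those of the transcript Gm45205 on the other strand, which had no row in the table. The Pycard transcript there has other ends than those given above, so this overlap may not hold for the transcript listed here.

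Casp1 and Casp4 encode the inflammatory caspases at the head of the canonical and noncanonical routes, and they are neighbours on chromosome 9. Casp1 (chr9:5298517-5307265) ends 1562 bases before Casp4 (chr9:5308828-5323713) begins, both on the plus strand. Casp1 had values of 136, 168, 136 and 144 in control mice, 170, 150, 168 and 170 in Con A + PBS mice, and 204, 190, 151 and 146 in Con A + hWJ-MSCs mice. The groups overlapped in each comparison. The log2 difference after Con A was 0.17 (95% interval -0.11 to 0.46, adjusted p = 0.271), which leaves room for a rise of up to 1.37-fold. It was 0.06 (95% interval -0.22 to 0.34, adjusted p = 0.782) between the Con A groups, and 0.23 (95% interval -0.05 to 0.51, adjusted p = 0.172) between mice with cells and control mice.

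For Casp4 the values were 120, 133, 117 and 105 in control mice, 258, 244, 262 and 256 in Con A + PBS mice, and 270, 212, 266 and 202 in Con A + hWJ-MSCs mice. The Con A + PBS mice lay within a narrow band, with a mean of 255 ± 7.75 (SD, n = 4), and all mice given Con A were above all controls. Casp4 rose 2.14-fold after Con A (log2 fold change 1.10, SE 0.12, adjusted p = 1.36e-05), and was 1.98-fold above control with cells (log2 fold change 0.99, adjusted p = 6.05e-05). Between the Con A groups it differed by -0.11 on the log2 scale (95% interval -0.37 to 0.14, adjusted p = 0.523).

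Taken mouse by mouse as log2 differences from the control mean, Casp4 minus Casp1 was 0.93 ± 0.05 (SD, n = 4) in Con A + PBS mice and 0.75 ± 0.27 in Con A + hWJ-MSCs mice, against a range of -0.16 to 0.12 in control mice. The 2 caspase genes thus stood apart in every mouse given Con A. This is a description of the mice and carries no test. The 250 bases upstream of each start site are shown because these neighbours responded differently. They are RefSeq windows of build GRCm38.p6, written 5′ to 3′ on the strand of the gene, at chr9:5298267-5298516 for Casp1 and chr9:5308599-5308848 for Casp4, the second being the first of 2 Casp4 start sites in RefSeq. Capitals mark matches to the kappaB-type pattern GGGNNTTTC or its reverse complement.
Casp1: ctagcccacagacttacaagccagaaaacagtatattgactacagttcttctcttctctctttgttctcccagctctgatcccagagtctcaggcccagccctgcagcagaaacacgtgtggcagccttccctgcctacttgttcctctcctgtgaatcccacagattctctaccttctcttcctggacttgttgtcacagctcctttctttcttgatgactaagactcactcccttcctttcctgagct
Casp4: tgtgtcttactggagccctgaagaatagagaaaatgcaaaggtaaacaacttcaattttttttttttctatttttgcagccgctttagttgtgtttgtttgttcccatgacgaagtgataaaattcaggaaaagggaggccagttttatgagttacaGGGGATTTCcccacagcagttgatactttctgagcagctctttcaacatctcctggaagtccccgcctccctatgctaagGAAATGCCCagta

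The Casp4 window held this pattern on the given strand from -93 to -85 relative to the RefSeq start site and on the reverse strand from -13 to -5. The Casp4 transcript given with the values starts at 5308828, before the RefSeq start site at 5308849. The match on the reverse strand lies downstream of that earlier start. The Casp1 window held none. The pattern occurred in 3.72% of the 32851 windows of 250 bases in the RefSeq table. A match of these letters does not show a bound site, and no match in a window of this size shows only that the letters are not there.

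Gsdmd encodes gasdermin D, the pore former of pyroptosis (chr15:75862339-75867404, plus strand). Its values were 692, 564, 652 and 624 in control mice, 1492, 1212, 1346 and 761 in Con A + PBS mice, and 1256, 1152, 1220 and 1120 in Con A + hWJ-MSCs mice. All mice given Con A were above all controls, although Con A + PBS replicate 4, at 761, was close to the highest control at 692. The same mouse had the highest Mlkl value of all 12. Gsdmd rose 1.85-fold after Con A (log2 fold change 0.89, SE 0.17, adjusted p = 0.000938) and was 1.88-fold above control with cells (log2 fold change 0.91, adjusted p = 0.00136).

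Between the Con A groups, Gsdmd differed by 0.02 on the log2 scale (95% interval -0.35 to 0.40, adjusted p = 0.938). The sign of that difference depended on replicate 4 of the PBS mice and replicate 1 of the mice with cells, since it was -0.18 without the former and -0.0042 without the latter. The spread within the Con A + PBS group (mean 1203, SD 316) was wider than that within the Con A + hWJ-MSCs group (mean 1187, SD 62.1), and most of it came from that 1 mouse.

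On the necroptosis side, Ripk1 encodes the kinase that links death receptors to RIPK3 (chr13:34002363-34033677, plus strand). Its values were 415, 674, 690 and 547 in control mice, 711, 660, 594 and 636 in Con A + PBS mice, and 708, 548, 621 and 585 in Con A + hWJ-MSCs mice. The control mice alone ranged from 415 to 690, and the groups overlapped in each comparison. The log2 difference was 0.19 after Con A (95% interval -0.14 to 0.52, adjusted p = 0.314), -0.08 between the Con A groups (95% interval -0.41 to 0.25, adjusted p = 0.729) and 0.10 between mice with cells and control mice (95% interval -0.23 to 0.43, adjusted p = 0.615). The last of these turned to -0.05 without control replicate 1.

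Exons of Ripk1 overlap those of Serpinb6a on the opposite strand. The library kit did not mark strand, so reads from the shared bases cannot be told apart. Serpinb6a, a serine protease inhibitor gene, averaged 153 in control mice, 199.5 after Con A + PBS and 182 after Con A + hWJ-MSCs, with log2 differences of 0.38 after Con A (adjusted p = 0.0155) and -0.14 between the Con A groups (adjusted p = 0.425).

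Zbp1 encodes a sensor of Z-form nucleic acids that can engage RIPK3, and is an interferon-induced gene (chr2:173206612-173218923, minus strand). Its values were 257, 364, 452 and 274 in control mice, 4840, 2870, 4113 and 4570 in Con A + PBS mice, and 2700, 1858, 2421 and 2584 in Con A + hWJ-MSCs mice. The 3 groups did not overlap, with the Con A + hWJ-MSCs mice in between. Zbp1 rose 12.2-fold after Con A (log2 fold change 3.61, SE 0.21, adjusted p = 1.45e-07). With cells it was lower than in Con A + PBS mice by 1.70-fold (log2 fold change -0.76, SE 0.21, 95% interval -1.21 to -0.31, adjusted p = 0.0370), and it was still 7.19-fold above control (log2 fold change 2.85, adjusted p = 1.30e-06).

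Mlkl encodes the executioner of necroptosis (chr8:111311797-111338177, minus strand). Its values were 125, 131, 122 and 110 in control mice, 680, 389, 628 and 792 in Con A + PBS mice, and 413, 350, 388 and 302 in Con A + hWJ-MSCs mice. All mice given Con A were above all controls, but the 2 Con A groups overlapped, because Con A + PBS replicate 2 at 389 lay below Con A + hWJ-MSCs replicate 1 at 413. Mlkl rose 4.91-fold after Con A (log2 fold change 2.30, SE 0.19, adjusted p = 1.60e-06). With cells it was 1.67-fold lower than in Con A + PBS mice (log2 fold change -0.74, SE 0.19, 95% interval -1.14 to -0.34, adjusted p = 0.0314) and 2.95-fold above control (log2 fold change 1.56, adjusted p = 5.49e-05).

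Both calls between the Con A groups depended on single mice. When each of the 12 mice was left out in turn, Mlkl lost its call in 5 fits and Zbp1 in 6, with adjusted p-values up to 0.0886 and 0.109. Neither gene was called without Con A + PBS replicate 1, 3 or 4 or without Con A + hWJ-MSCs replicate 2 or 3, and without Con A + hWJ-MSCs replicate 1 only Mlkl was. The log2 fold change stayed negative in all 12 fits, from -0.95 to -0.61 for Mlkl and from -0.93 to -0.65 for Zbp1. With Con A + PBS replicate 1 left out, 2 genes of the whole table were called lower, against 495 with all mice, so most calls of this comparison were lost along with these.

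**Figure D2:**
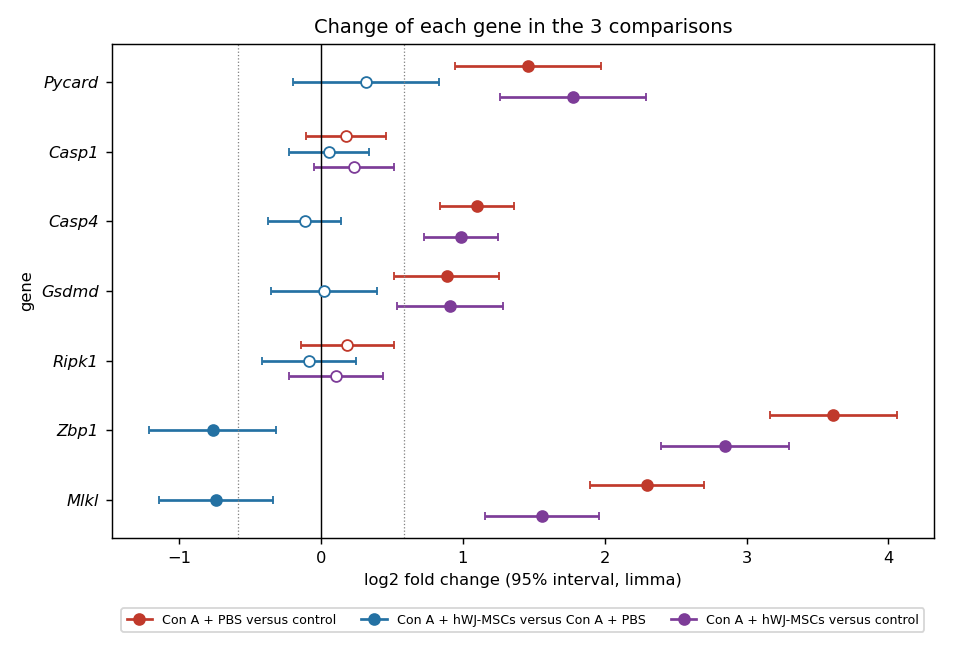
Log2 fold change (log2(value + 1) scale, 4 mice a group, horizontal bars are 95% intervals from limma) of each gene in the 3 comparisons, with filled points for genes called, open points for those not called, and dotted lines at the 1.5-fold threshold. Only Zbp1 at -0.76 and Mlkl at -0.74 are filled in the comparison of Con A + hWJ-MSCs with Con A + PBS, and Casp1 and Ripk1 are open throughout.

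Mlkl and Ripk1 diverged in every mouse given Con A. As log2 differences from the control mean, Mlkl minus Ripk1 was 2.11 ± 0.46 (SD, n = 4) in Con A + PBS mice and 1.46 ± 0.14 in Con A + hWJ-MSCs mice. Zbp1 minus Mlkl was 1.31 ± 0.16 and 1.29 ± 0.29 in the same groups, so the gap between these genes differed between the groups by less than the spread within them. Gsdmd minus Casp4 was -0.22 ± 0.43 and -0.08 ± 0.14, within the spread of the mice.

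**Figure D3:**
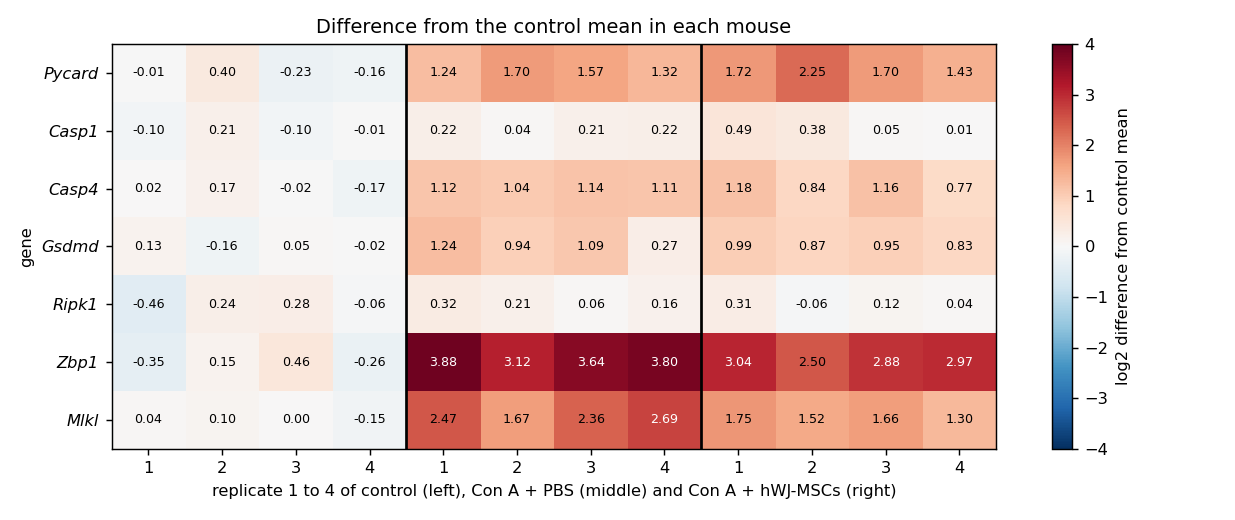
Difference of log2(value + 1) from the mean of the control mice for each gene (rows) in each mouse (columns, replicates 1 to 4 of the control mice on the left, of Con A + PBS in the middle and of Con A + hWJ-MSCs on the right), with the number printed in each cell and red for higher and blue for lower. Con A + PBS replicate 4 had the smallest Gsdmd difference of the mice given Con A, 0.27, and the largest Mlkl difference, 2.69.

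The order of the mice differed in part between the members. Con A + hWJ-MSCs replicate 1 had the highest value of its group for every member but Pycard. Con A + PBS replicate 2 had the lowest Zbp1 and Mlkl values of its group and the highest Pycard value. Con A + hWJ-MSCs replicate 2 had the lowest Zbp1 and Ripk1 values and the highest Pycard value of its group, and Con A + hWJ-MSCs replicate 4 the lowest Mlkl, Casp4, Pycard, Casp1 and Gsdmd values.

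Levels were compared between genes only per kilobase of exons of the transcript given in the table, for the 4 members whose transcript was full-length and had the same ends in the GENCODE M21 annotation. How the deposited values were made from reads is not known, so the order below holds only if they rise in proportion to reads and carry no correction for length. In control mice Ripk1 stood at 178 ± 39.2 (SD, n = 4) and Zbp1 at 169 ± 45.3 deposited units per kilobase, which overlapped (127 to 211 and 129 to 227). Casp1 at 97.5 ± 10.1 and Mlkl at 60.9 ± 4.41 were below them. After Con A + PBS the order was Zbp1 at 2060 ± 438, Mlkl at 311 ± 84.8, Ripk1 at 199 ± 15.0 and Casp1 at 110 ± 6.49. The ranges of Mlkl (194 to 395) and Ripk1 (182 to 218) overlapped. After Con A + hWJ-MSCs it was Zbp1 at 1202 ± 188, Ripk1 at 188 ± 21.0, Mlkl at 181 ± 24.1 and Casp1 at 115 ± 19.1, with Ripk1 (168 to 217) and Mlkl (151 to 206) overlapping.

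The window upstream of Mlkl is shown because it is the member with the largest change whose promoter was in the RefSeq table. It lies at chr8:111338206-111338455 on GRCm38.p6 and is written 5′ to 3′ on the minus strand, with no capitals because none of the 3 patterns searched occurs in it.
Mlkl: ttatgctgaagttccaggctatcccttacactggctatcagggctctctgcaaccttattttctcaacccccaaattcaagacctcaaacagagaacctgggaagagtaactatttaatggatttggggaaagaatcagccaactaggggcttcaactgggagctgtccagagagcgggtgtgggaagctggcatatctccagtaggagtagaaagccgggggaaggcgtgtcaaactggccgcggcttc

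The other patterns were the core of the interferon-stimulated response element, GAAANNGAA, present in 7.13% of all windows, and the STAT pattern TTCNNNGAA, present in 7.02%, both searched on both strands. Neither was found upstream of Casp1, Casp4, Pycard or Mlkl. Ripk1 had TTCNNNGAA at -108 to -100 and -11 to -3 of its second RefSeq start site and none of the 3 patterns at its first. The window of the second start site begins at 34002624, and the Ripk1 transcript given with the values starts at 34002363. Both matches thus lie downstream of the start of that transcript. Gsdmd and Zbp1 had no window.

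The genes whose differences from the control mean lay closest to those of each called member over the 12 mice were found by the mean absolute log2 difference. They were Usp18 (0.163) and Gbp3 (0.198) for Zbp1, Samhd1 (0.113) and Bcmo1 (0.192) for Mlkl, and Fbxo6 (0.093) and Psme2 (0.104) for Gsdmd. For Casp4 they were Wbp5 (0.091) and Rpsa (0.102), and for Pycard they were Tmem41a (0.202) and Apobec3 (0.208).

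The genes around the members were counted by role. As for Pycard, some reached the lowest kept level of 64 only in mice given Con A (Cd14, Il33, Il1r2 and Tnfrsf10b) or only in control mice (Naip5, Il1a and Il18), so the list counts that hold them are descriptions. Of 15 inflammasome sensors, 6 were in the table. Nlrp12, Ifi204 and Ifi205 rose after Con A, and Nlrp6 and Naip5 fell, or 50% higher and 33.3% lower against 19.5% and 19.2% of all genes. Nlrp12 went from a mean of 325.5 ± 124 (SD, n = 4) to 1642 ± 239 (log2 fold change 2.43, adjusted p = 1.41e-05), and Nlrp6 from 3970.5 ± 576 to 1319 ± 919 (log2 fold change -2.12, adjusted p = 0.0116). None of the 6 was called between the Con A groups, where limma counted 1 at an unadjusted p below 0.05. That gene was Nlrp6, with a mean of 3494 ± 797 with cells (log2 difference 1.91, adjusted p = 0.0572).

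Of 12 adaptors, caspases and pore formers, 9 were in the table. Pycard, Casp4, Gsdmd and Casp8 rose after Con A and Ninj1 fell, or 44.4% higher against 19.5% of all genes and 11.1% lower against 19.2%. Casp8, the caspase that cuts RIPK1 and RIPK3 and so holds back necroptosis, went from 440 ± 60.6 to 747.5 ± 142 (log2 fold change 0.76, adjusted p = 0.00103) and was at 723 ± 90.3 with cells. Ninj1, which ruptures the membrane late in lytic death, went from 2451 ± 199 to 1480 ± 296 (log2 fold change -0.75, adjusted p = 0.00105), and was at 1925.5 ± 219 with cells (log2 difference 0.40 from Con A + PBS, adjusted p = 0.0829). None of the 9 was called between the Con A groups, and limma counted 1 at an unadjusted p below 0.05. Ifi204, Ifi205 and Naip5, and the genes named without means in the lists that follow, were chosen after their values were seen.

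Among genes of priming, ion flux and licensing, 14 of 17 were in the table, 7 rose after Con A and none fell, or 50% higher against 19.5% of all genes. Cd14, a co-receptor for lipopolysaccharide, went from 55.5 ± 4.80 to 4709.5 ± 700, given with no test because it was kept only through the mice given Con A, and Gbp2, an interferon-induced GTPase, from 167.5 ± 44.2 to 10632 ± 2408 (log2 fold change 5.99, adjusted p = 1.63e-07). With cells, Tlr2, Cd14, Gbp2 and Gbp3 were lower than in Con A + PBS mice (28.6% of the list against 4.38% of all genes), Cd14 at 1972 ± 730 (log2 fold change -1.33, adjusted p = 0.0188) and Gbp2 at 5218 ± 3206 (log2 fold change -1.18, adjusted p = 0.0468).

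Of the 11 cytokine substrates and their antagonists, 8 were in the table. After Con A 5 were called higher and 3 lower, or 62.5% and 37.5% against 19.5% and 19.2% of all genes. These shares are raised by the floor of the table, since Il33 and Il1r2 reached 64 only in mice given Con A and Il1a and Il18 only in control mice. Il1rn, the natural blocker of the interleukin-1 receptor, went from 56.75 ± 11.7 to 2712 ± 702 (log2 fold change 5.54, adjusted p = 6.19e-09) and was at 1166.5 ± 241 with cells (log2 fold change -1.20 against Con A + PBS, adjusted p = 0.0188). Il1r2, a decoy receptor, went from 1 ± 2 to 100.25 ± 13.1 and was at 61 ± 34.5 with cells (adjusted p = 0.307 against Con A + PBS). It too was kept only through the mice given Con A, and neither a fold nor a test against control is given. Il18, whose product caspase-1 matures, had a log2 difference of -2.38 after Con A, a description because only control mice reached the lowest kept level, and was higher with cells than in Con A + PBS mice (log2 fold change 0.90, adjusted p = 0.0384). Sigirr, an inhibitory receptor, had log2 fold changes of -0.82 and 0.61. Neither Il18 nor Sigirr was called higher with cells without Con A + PBS replicate 1, 3 or 4 or without Con A + hWJ-MSCs replicate 1, 2 or 3, and 1 gene of this list was called higher without control replicate 2, 3 or 4 or Con A + hWJ-MSCs replicate 4.

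Membrane repair genes were nearly all in the table, 13 of 14, and 3 rose after Con A with none falling, a share of 23.1% against 19.5% of all genes, so the count is close to the background. Chmp4b, a subunit of the ESCRT-III complex that sheds damaged membrane, went from 841 ± 68.2 to 2968.5 ± 558 (log2 fold change 1.80, adjusted p = 6.16e-06) and was at 2013 ± 438 with cells (log2 difference -0.57, adjusted p = 0.0507). Anxa2, a calcium-dependent membrane-binding protein, went from 221 ± 43.8 to 2235.5 ± 433 (log2 fold change 3.33, adjusted p = 6.18e-07) and was lower with cells, at 951.5 ± 355 (log2 fold change -1.28, adjusted p = 0.0188).

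Of 13 necroptosis core genes and upstream receptors, 10 were in the table, 6 rose after Con A and none fell, or 60% higher against 19.5% of all genes. Between the Con A groups, Mlkl, Zbp1, Tnfrsf1b and Tnfrsf10b were lower with cells, or 40% against 4.38% of all genes. Both counts include Tnfrsf10b. This death receptor for TRAIL was at 13.5 ± 1.91 in control, 113 ± 24.3 after Con A and 31 ± 10.2 with cells. It reached the lowest kept level of 64 only in the 4 Con A + PBS mice, so it had to be higher there to be in the table, and its 2 calls support nothing. Tlr3, a double-stranded RNA receptor that can also reach RIPK3, went from 159 ± 24.0 to 404 ± 44.3 (log2 fold change 1.34, adjusted p = 1.79e-05) and was at 314 ± 61.3 with cells (log2 difference -0.38, adjusted p = 0.1002).

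Of 28 genes listed as brakes on RIPK1 and RIPK3, all in the table, 10 rose after Con A and 1, Ppm1b, fell. That is 35.7% higher against 19.5% of all genes, and 3 rose by more than 2-fold. The list also holds Cyld and its partner Spata2, which remove ubiquitin from RIPK1 and are known to favour necroptosis, and Spata2 was among the 10. Tnfaip3, which encodes the ubiquitin-editing enzyme A20, went from 54.5 ± 13.9 to 723 ± 268 (log2 fold change 3.65, adjusted p = 1.06e-06) and was at 154.5 ± 42.8 with cells (log2 fold change -2.18, adjusted p = 0.00985). Adar, whose product edits double-stranded RNA and limits ZBP1 activation, went from 511 ± 54.1 to 1750 ± 251 (log2 fold change 1.77, adjusted p = 5.10e-07) and was at 1089 ± 78.3 with cells (log2 fold change -0.67, adjusted p = 0.0188). Birc3 was the other gene of this list called lower with cells.

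Of the 14 interferon and NF-kB transcription factors, 11 rose after Con A and none fell. That is 78.6% against 19.5% of all genes, and 7 rose by more than 2-fold. Irf7, a driver of the type I interferon response, went from 965 ± 146 to 5653 ± 1095 (log2 fold change 2.54, adjusted p = 3.76e-07). With cells, Irf7 was at 5410 ± 843 (log2 difference -0.05, adjusted p = 0.845), while the NF-kB subunit genes Nfkb2 (log2 fold change -0.83, adjusted p = 0.0199) and Relb (log2 fold change -1.004, adjusted p = 0.0224) were lower than in Con A + PBS mice. The number of genes called lower with cells fell to 0 or 1 in each of the 6 lists that had such genes when Con A + PBS replicate 1 or Con A + hWJ-MSCs replicate 2 or 3 was left out, and it rose from 2 to 5 among the transcription factors without Con A + PBS replicate 2.

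**Figure D4:**
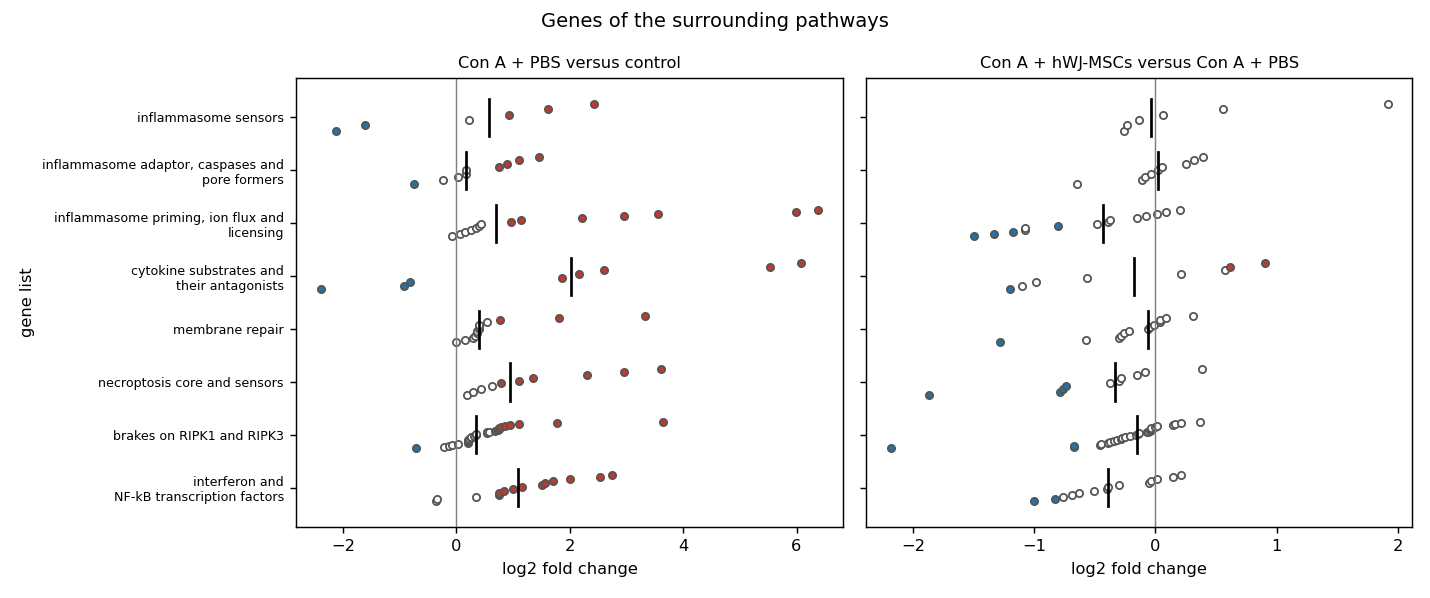
Log2 fold change (log2(value + 1) scale) of each gene in the 8 pathway lists, with the members included, for the change after Con A (left, against control) and the change with cells (right, against Con A + PBS), where each point is a gene, red is called higher, blue called lower, open not called, and the vertical bar is the list's median. The median of the transcription factors was 1.08 on the left and -0.40 on the right, and that of the inflammasome adaptor, caspases and pore formers 0.17 and 0.02.

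Markers of other cell types also changed after Con A, with some lists mostly higher and others mostly lower. Of all genes, 19.5% were called higher and 19.2% lower in that comparison. The summed value of 9 neutrophil markers ranged from 1090 to 5043 in control mice, from 74173 to 342138 in Con A + PBS mice and from 58897 to 74592 in Con A + hWJ-MSCs mice, and all 9 were higher after Con A. Il1r2, among them, reached the lowest kept level of 64 only in mice given Con A. Retnlg and S100a8 had values down to 0 and 1, so the count of 9 is a description. Between 91.3% and 99.7% of each neutrophil sum was Lcn2, which hepatocytes also make, and the other 8 summed to 70 to 163, 1110 to 2090 and 859 to 1910. The highest Lcn2 value in Con A + PBS mice, 341028, was the largest value of the table, so the scaling limits this sum. The 8 monocyte markers summed to 16160 to 30970, 60076 to 74554 and 27773 to 59605 in the same order, with 7 higher and 1 lower after Con A. Between 89.9% and 97.4% of each sum was Fn1, also a hepatocyte product, and the other 7 summed to 1064 to 1380, 1931 to 2244 and 1667 to 2905. Leaving out Lcn2 and Fn1 was decided once their values had been seen. The 11 macrophage and Kupffer cell markers summed to 5963 to 9483, 1811 to 2686 and 912 to 2595, with 10 lower and 1 higher. Cd163, Timd4 and Vsig4 among them had values down to 6, 7 and 8, and the monocyte markers Ly6c2 and F13a1 down to 1 and 0. Genes so far below 64 in some mice were kept through others, so the monocyte and macrophage counts are descriptions.

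The 7 T and NK cell markers in the table, of 19 listed, summed to 192 to 280, 882 to 1518 and 886 to 1466, with 6 higher after Con A, and 1 of 8 B cell markers was in the table, at 122 to 336, 74 to 204 and 92 to 204. The T and NK cell markers other than Klrk1 had lowest values of 0 to 14, far below the kept level of 64. Their count of 6 is thus a description. The defining markers Adgre1, Ly6g, Cd3e, Cd4 and Klrb1c had no row. The 8 pan-leukocyte markers went from 2528 to 3068 in control to 3673 to 5367 and 3064 to 4865, with 5 higher after Con A. The shares of all genes to set beside the counts here are again 19.5% higher and 19.2% lower. Hepatocyte markers summed to 1430450 to 1629790, 1047540 to 1063100 and 1035970 to 1137320, with 5 of 10 lower and 1 higher. The hepatocyte sum is limited by the scaling, since Alb was at the shared largest value in all 12 mice and Cps1 had 1 value in all 12. The 8 endothelial markers summed to 3039 to 4360, 1590 to 2107 and 1752 to 2254, with 5 lower and 1 higher. Clec4g among them had values down to 3, so this count is a description too.

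Between the Con A groups the markers called were all endothelial, Stab2 higher and Lyve1 and Cdh5 lower with cells. In whole liver, fewer cells of a type and less RNA per cell cannot be told apart. The part of these cell types in the changes of the members was not tested.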

How the data were processed

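Liver RNA of 12 mice was analysed, in 3 groups of 4 taken from the sample labels. Libraries were made from poly-A RNA with a kit that does not mark strand and read as 150 bp paired ends. The values the authors deposited are scores, whole numbers per gene and mouse that had been scaled between the mice and are no longer raw counts. The submitters' processing notes name Bowtie2 2.2.1, RSEM 1.2.18 and build mm10 without giving their roles, and the normalization step is not given in the sources used here. The paper's methods name DESeq2 for differential expression. The scores share 1 median and have 10 genes at the same largest value, 341028, in each mouse, so depth is unknown and no counting error is given. All 11289 genes reach 64 in at least 2 mice.

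log2(score + 1) was fitted with limma 3.58.1 (R 4.3.3, eBayes with a trend) over all 12 mice, without covariates. P-values were two-sided and adjusted by Benjamini-Hochberg over all genes, and measure the spread between these mice. Calls needed an adjusted p below 0.05 together with a change of more than 1.5-fold. The script was tested on simulated data. The planned DESeq2 alternative needs counts and was not run. Other settings tried were quantile normalization or median centring, a pseudocount of 10, genes averaging 100 or more, no trend in eBayes, a fit of the 8 mice compared, a replicate block, unadjusted p-values, a 2-fold threshold and leaving out each mouse in turn.

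The members and the lists were chosen with earlier results of these data known. The text names the 7 members in the table, in each pathway list the 2 other genes with the largest change after Con A, for each called member the 2 closest genes by the mean absolute log2 difference over the 12 mice, and listed cell type markers. Other genes are named only where a list's calls were few, and results for a few genes under these rules are left out. Positions of the 7 members are those deposited with the values. Exons and overlaps are from GENCODE M21 (GRCm38), and promoter windows from RefSeq on GRCm38.p6, where 5 of the 7 members matched. Python 3.11.15, pandas 2.3.3 and matplotlib 3.10.9 made the summaries and plots.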

Additional observations from a re-analysis of the deposited data

Results flagged for a closer look

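The Casp1 value of 150 in Con A + PBS replicate 2 stood apart from the other mice of its group, at 168, 170 and 170, by Dixon's test at the 95% level. This was the only one of 21 member and group combinations past the limit, and chance marks about 1 in 20 such groups.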

How the results depend on the processing

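The counts of members called were the same under a pseudocount of 10, no trend in eBayes and the unadjusted p in all 3 comparisons. Median centring could change nothing because all medians are equal, quantile normalization left the counts the same but changed little of values already scaled alike, and a minimum mean of 100 removed Pycard, leaving 4 higher after Con A and 4 higher with cells against control. In the comparison of the Con A groups, the 2 members called lower became 1 (Zbp1) with only the 8 mice compared, where Mlkl had an adjusted p of 0.0580, became 0 with a fold change above 2, and ranged from 0 to 2 with a mouse left out. At an unadjusted p, limma also called 0 members higher in that comparison and 0 lower in each comparison with control. With a fold change above 2, the 5 members higher with cells against control became 3 (Pycard, Mlkl and Zbp1) and the 5 higher after Con A became 4. Signs turned in uncalled differences with a mouse left out, over ranges of -0.048 to 0.20 for Ripk1 with cells against control, and of -0.027 to 0.13 for Casp1 and -0.18 to 0.14 for Gsdmd between the Con A groups. Between those groups Nlrp12 reached -0.0062, Irf7 0.04 and Casp8 0.09 at their farthest past 0. Of the recomputed values of the members, 380 kept their direction and call, 12 lost a call and 4 turned sign, and of 1008 counts over the pathway lists, 933 stayed within 1.5 times. With the replicate block 5, 2 and 5 members were called in the 3 comparisons, as without it. Replicate numbers belong to different animals, and the deviations of mice with the same number correlated between -0.12 and 0.37. Depth is unknown, and 4 mice a group limit what can be detected.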
